A study of Mus musculus with 8 samples.

Results

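The nuclear genes of respiratory complexes II to V were examined in 8 single myocardial cells from the mouse heart tube at embryonic day 8.5, the 9 somite stage. The members were all genes on the array named Sdha to Sdhd, Uqcr, Cox4 to Cox8, Atp5, Cyc1 or Cycs. This gave 77 probes for 50 of the 24324 genes with a usable symbol: 4 for complex II, 9 for complex III, 1 for cytochrome c, 18 for complex IV, 16 for complex V and 2 others that the names take in. Where a gene had several probes, the one with the highest mean signal stands for it. Of the 50 genes, 46 were subunits or cytochrome c itself. The other 4 were Cox7a2l, which helps to join complexes into supercomplexes, Atp5s (coupling factor B), Atp5sl, which is not a complex V subunit, and Atp5c1-ps, a pseudogene of the gamma subunit.

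The 4 WT cells came from Mesp1+/+ embryos with both Sox17 alleles floxed and no Cre. The 4 KO cells came from Mesp1Cre/+ embryos with the same floxed Sox17 alleles, in which Cre, driven from the Mesp1 locus, deletes Sox17 in early mesoderm, so that these cells also lacked 1 intact Mesp1 allele. Each array held the amplified cDNA of 1 cell. Cells were identified as myocardium by marker PCR, and embryos were genotyped from the tail. The comparison addresses whether the deletion alters the transcripts of myocardial cells before the heart looks abnormal. No label tied a cell to an embryo, so each genotype counts as 1 sample of cells, no test was made, and every SD (n = 4) is the spread between cells. The WT cells were hybridised on 1 slide and the KO cells on a second, so a slide effect and a genotype effect cannot be told apart.

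The mitochondrial respiratory chain passes electrons from nutrients to oxygen and pumps protons across the inner membrane. Complex II, succinate dehydrogenase, feeds electrons from the citric acid cycle into the chain. Complex III passes them to cytochrome c, complex IV hands them to oxygen, and complex V, the ATP synthase, lets protons flow back through its membrane part (Fo) and makes ATP in its head (F1). Complex IV is built partly from subunits that come in a heart and muscle form and a general form. The myocardium is among the tissues richest in mitochondria.

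Between 17.1% and 26.0% of the 55681 probes were well above background on an array, the criterion used here for detection. All 11 myocardial markers were detected in every cell. In WT cell 1 Actn2 was at the floor of 50, to which lower signals were set, and it read 2196 to 15799 in the others. Ttn read 251 in WT cell 1 and 4382 to 26106 in the others. Myl4 (322704), Actc1 (458864) and Nkx2-5 (43452) were instead highest of the 8 cells in WT cell 1. Of the 11 markers, 9 were higher in KO on average, with a median of 0.33 log2 units. Myl7, an atrial myosin light chain, read 9917 to 25941 in WT and 28530 to 46392 in KO, with no overlap. Of the 12 endothelial and endocardial markers, 3 to 5 were detected in each cell, and Cdh5, Tek, Emcn, Nfatc1 and Tal1 were in none. Kdr was detected in all 8 cells at 443 to 693, and Plvap in all 8 at 50 to 99.3. Egfl7 read 3666 in WT cell 3 and 1272.5 in KO cell 2 and was at the floor elsewhere. Pecam1 was detected in 6 cells but lay at the floor in all. The erythroid list had at most 1 of 7 markers in a cell, the endoderm list at most 1 of 6, the proepicardial list at most 1 of 5 and the neural crest list at most 1 of 4. The probes of Sox17 and Mesp1 were detected in 0 of the 8 cells, WT cells included, so they do not check the genotype labels. WT cell 1 stood apart in complex V, as given below.

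Many respiratory genes have processed copies elsewhere in the genome, and this decides how far a probe can be tied to its gene. Of the 50 chosen probes, 38 lay on the chromosome that RefSeq gives for the gene, 8 lay on another and 4 had no position. Positions are those of the array annotation in build mm9, and exons and UTRs were not annotated here. The 6 probes named Atp5l, for the g subunit of the ATP synthase membrane part, show how nearly alike such probes can be. RefSeq places Atp5l on chromosome 9, yet only 1 of the 6 probes lay there. Stretches of 30 bases from 4 of the other probes are shown, 5′ to 3′, because the probes differ there at only 4 of the 30 positions, given in capitals, and because Atp5l had the largest difference of any member.
Atp5l, chr6:66696339-66696398: gaccatgtgtaaCAGgacTgctatctgaat
Atp5l, chrX:35750466-35750525: gaccatgtgtaaCGGgacTgctatctgaat
Atp5l, chr6:105481860-105481919: gaccatgtgtaaAGAgacTgctatctgaat
Atp5l, chr10:95599587-95599646: gaccatgtgtaaCGGgacCgctatctgaat

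The coordinates are those of the whole 60-base probe. The probe on chromosome X stands for the gene. All 6 probes gave nearly the same difference between genotypes, from 2.87 to 3.02 on the log2 scale, including the probe on chromosome 9 (2.87). Which copy supplied the signal was not tested. The same limit holds for Atp5k (both probes on chromosome 8, gene on chromosome 5), Atp5o (probe on chromosome 12, gene on chromosome 16), Atp5g2 (both probes on a sequence of chromosome 17 with no fixed place, gene on chromosome 15) and the chosen probe of Atp5j2 (chromosome 9, gene on chromosome 5), whose other probe, on chromosome 5, gave 2.25 against 2.34.

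Cox7c, a small subunit of complex IV, shows the opposite case. Its probe on chromosome 13, where RefSeq places the gene, was detected in 0 of 8 cells, whereas the probes placed on chromosomes 14 and 17 were detected in all 8. The last 30 bases of the chromosome 17 probe and the first 30 bases of the chromosome 13 probe share a run of 16 bases, in capitals, which shows that the silent probe starts where the bright one ends.
Cox7c, chr17:26039032-26039091: taaactcttgaactCTTATACTAGAAAAAA
Cox7c, chr13:86184403-86184462: CTTATACTAGAAAAAAttgtaaataaacta

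Cycs, the somatic cytochrome c, gave probes that differed as well. The chosen probe, on chromosome 19, was detected in all 8 cells with a difference of -0.43. A second probe on chromosome 19 was detected in 4 cells with a difference of -2.46, and the probe on chromosome 6, where RefSeq places Cycs, was detected in 0. Among the 18 members with several probes, Cycs, with a span of 2.46, and Cox7a2l, with a span of 1.83, were the members whose probes spread by more than 1 log2 unit. The chosen Cox7a2l probe, on chromosome 17, gave 0.64, and a probe on chromosome 12, which was not detected in WT cell 1, gave 2.41.

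The respiratory genes were detected almost throughout. Detection did not always mean a signal above the floor. Among members detected in at least 4 cells, 1 to 3 in each cell were detected but lay at the floor of 50. All 8 cells had 41 of the 50 genes (82%), whereas this held for 2311 of all 24324 genes (9.5%). Each cell had 43 to 46 of the 50 genes detected, 44 to 46 in WT and 43 to 46 in KO. Over all genes, WT cells had 5345 to 7497 detected and KO cells 4642 to 6739. The respiratory genes thus stayed detected in KO cells 2 and 3, which had 4741 and 4642 genes detected in all.

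In all, 3 members were detected in 0 of 8 cells: Cox7b2 and Cox8c, both testis forms of complex IV subunits, and Atp5s. Cox8b, the heart and muscle form of subunit 8, was detected in 1 KO cell, where its signal did not exceed the floor of 50. Cox6b2, another testis form, was detected in all 8 cells but also lay at the floor in all of them, so that its difference of 0 holds no information. The remaining members were detected in at least 5 cells, and together with Cox6b2 they make the 46 genes, detected in at least 4 of 8 cells, on which the counts below rest.

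Over these 46 genes, differences between the genotypes lay on both sides of 0. The difference, mean KO minus mean WT log2 signal, had a median of -0.01, with 23 genes lower and 22 higher in KO, and all 5626 genes detected in at least 4 cells had a median of 0. Members at least 5-fold lower in KO were 2 of 46 (4.35%), Uqcrb and Atp5sl, against 9.95% of all genes. Members at least 5-fold higher were 4 of 46 (8.7%), Atp5l, Atp5e, Atp5k and Atp5j2, all of complex V, against 2.6% of all genes. At 2-fold, 8 members were lower (17.4%, against 24.7% of all genes) and 10 were higher (21.7%, against 12.8%).

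No member had all cells of one genotype above all cells of the other. In all genes, every WT cell was above every KO cell in 1.96%, and every KO cell was above every WT cell in 1.51%. The difference was larger than the pooled SD between cells for 8 of 46 members (17.4%), namely Atp5a1, Atp5e, Atp5j2, Atp5k, Atp5l, Cox4i1, Cox6b1 and Uqcr11, and for 21.2% of all genes. When each cell was left out in turn, 22 of 46 members (47.8%) kept the sign of their difference, near the 47.2% of all 5626 genes, of which 691 were at 0 throughout. In 23 members the difference changed sign or came to 0 without some single cell, and Cox6b2 was at 0 throughout. None of the 6 members past 5-fold stayed past it in every such case, whereas 300 of the 706 genes past 5-fold (42.5%) did.

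**Figure D1:**
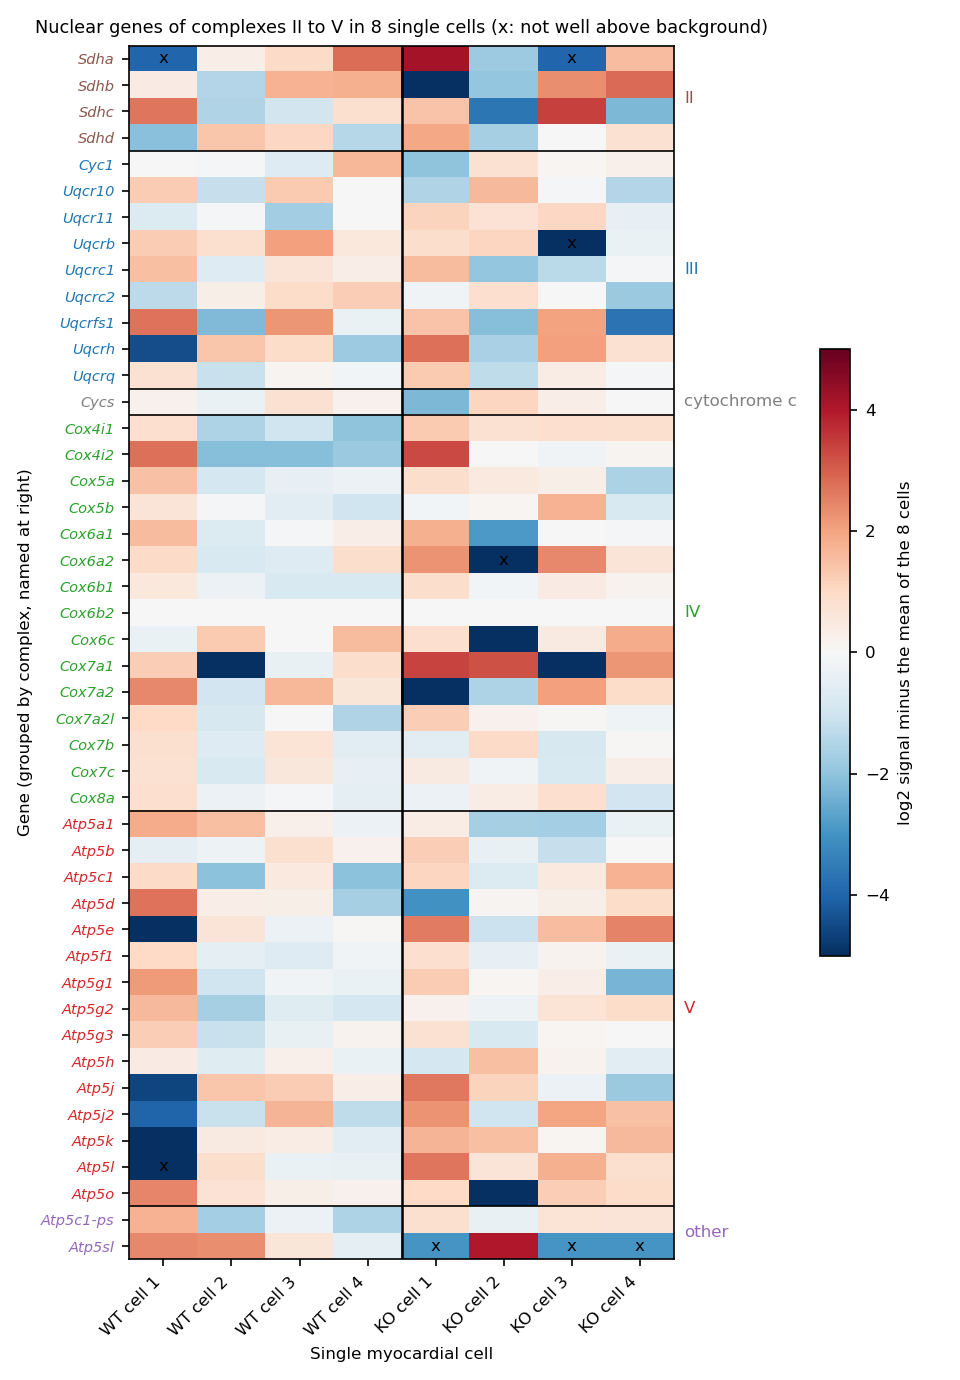
Signals of the 46 members detected in at least 4 of 8 cells (rows, grouped and coloured by complex) in 4 WT and 4 KO cells (columns), as log2 signal minus the gene's mean over the 8 cells, with x where the probe was not well above background. Single dark blue fields in otherwise even rows, as for Uqcrb in KO cell 3 or Atp5o in KO cell 2, are genes at or near the floor in 1 cell, and WT cell 1 holds most of them in complex V.

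Cells of one genotype differed widely from one another. For the members detected in all 8 cells, the SD over the cells of a genotype had a median of 1.18 log2 units, against 0.88 for all genes detected in all 8 cells. This order depended on the filter. With detection in at least 4 cells, the medians were 1.345 for the members and 1.44 for all genes. Spot to spot error was far smaller, since the probe of Uqcrc2, a core protein of complex III, had 9 or 10 usable spots on each array and their SD was 0.02 to 0.06 log2 units. This covers the array only. Amplification from 1 cell and the content of the cell both enter the spread between cells and cannot be told apart.

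With detection in at least 4 cells, complex II varied most between cells among the complexes, by a median that rests on 4 genes. Its genes had a median SD of 2.84 log2 units, against 1.27 in complex III, 0.91 in complex IV and 1.45 in complex V. The median over all genes was 1.44. Within complex II the SD ran from 1.63 for Sdhd to 3.25 for Sdha, and single genes elsewhere spread as much, such as Cox7a1 in complex IV (3.61). Sdha, the flavoprotein that oxidises succinate, was not detected in WT cell 1 and read 997, 1544 and 5377 in the other WT cells, and it read 13897, 220 and 2302 in KO cells 1, 2 and 4 and was not detected in KO cell 3. Its difference was -0.06, and the cells of each genotype covered nearly the whole range. Sdhb, the iron-sulphur protein, read 3447, 939, 8597 and 8686 in WT and 50, 667, 12774 and 18363 in KO. The KO mean was lower by 1.24 log2 units, but without KO cell 1, which was at the floor at this probe, the difference was 0.45. A second Sdhb probe, also detected in all 8 cells, gave -1.09. It read 322, 60.7, 2541 and 6601 in KO, so KO cell 1 was not at the floor there, against 441 to 3547 in WT. Sdhc, a membrane anchor, read 7812, 427, 654 and 2144 in WT and 3255, 99.7, 12969 and 258 in KO, a difference of -0.53 that was 0.59 without KO cell 2. The second Sdhc probe, detected in all 8 cells, gave -0.03. Sdhd, the other anchor, read 739, 8298, 6579 and 1175 in WT and 12255, 1008, 3256 and 5353 in KO, a difference of 0.55. The 4 subunits, which are built into the complex in equal number, did not rank the 8 cells alike.

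The score of complex II, the mean of its genes in a cell minus the mean over the 8 cells, was -0.75, -0.31, 0.72 and 0.98 in WT and 0.46, -2.26, 0.45 and 0.72 in KO. KO cell 2 lay far below the rest. The score differed between genotypes by -0.32, with an SD between cells of 0.82 in WT and 1.41 in KO, and by 0.38 without KO cell 2.

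In complex III, 6 of 9 genes were lower in KO and 3 were higher, with a median of -0.57. Uqcrb, a small subunit, was past 5-fold. It read 9598, 7028, 16674 and 5798 in WT cells and 7407, 8528 and 3205 in KO cells 1, 2 and 4, while it was not detected in KO cell 3. The difference of -2.33 came mostly from that cell and was -0.61 without it. Its 3 probes gave -1.86 to -2.33.

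The catalytic and core subunits of complex III also had lower means in KO. Uqcrfs1, the Rieske iron-sulphur protein, read 7469, 247, 5294 and 910 in WT and 3008, 256, 4523 and 87.2 in KO. The difference was -1.22, and the ranges of the genotypes overlapped widely. Cyc1, cytochrome c1, read 7755, 7698, 5046 and 24832 in WT and 1945, 13563, 8456 and 9509 in KO, a difference of -0.46 that was 0.15 without KO cell 1. The core proteins Uqcrc1 and Uqcrc2 differed by -0.91 and -0.57. Single cells decided much of these values, since Uqcrfs1 was at -0.19 and Uqcrc2 at -0.05 without KO cell 4, and Uqcrc1 was at -0.42 without KO cell 2. None of these 4 was detected in fewer than 8 cells.

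Uqcrh, the hinge protein that meets cytochrome c1, was higher in KO by 1.97 log2 units. It read 384, 21331, 15717 and 2311 in WT and 55278, 2691, 33752 and 13858 in KO. The low WT cell 1 carried much of this, and without it the difference was 0.82. Uqcr11, a small subunit, was steadier, with 9530, 14900, 4644 and 15323 in WT and 33169, 25660, 31787 and 11766 in KO. In 3 of 4 KO cells it was above every WT cell, and its difference of 1.24 stayed between 0.87 and 1.58 when any cell was left out. The other small subunits, Uqcr10 and Uqcrq, differed by -0.68 and 0.18.

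Cytochrome c, which carries electrons from complex III to complex IV, read 9929, 6851, 14294 and 9814 in WT cells at the chosen Cycs probe and 1796, 17961, 10652 and 8498 in KO cells. KO cell 1 was the lowest of the 8 and KO cell 2 the highest. The score of complex III was 0.12, -0.31, 0.65 and 0.16 in WT and 0.59, -0.21, -0.24 and -0.77 in KO, a difference of -0.31 with an SD of 0.39 in WT and 0.56 in KO.

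**Figure D2:**
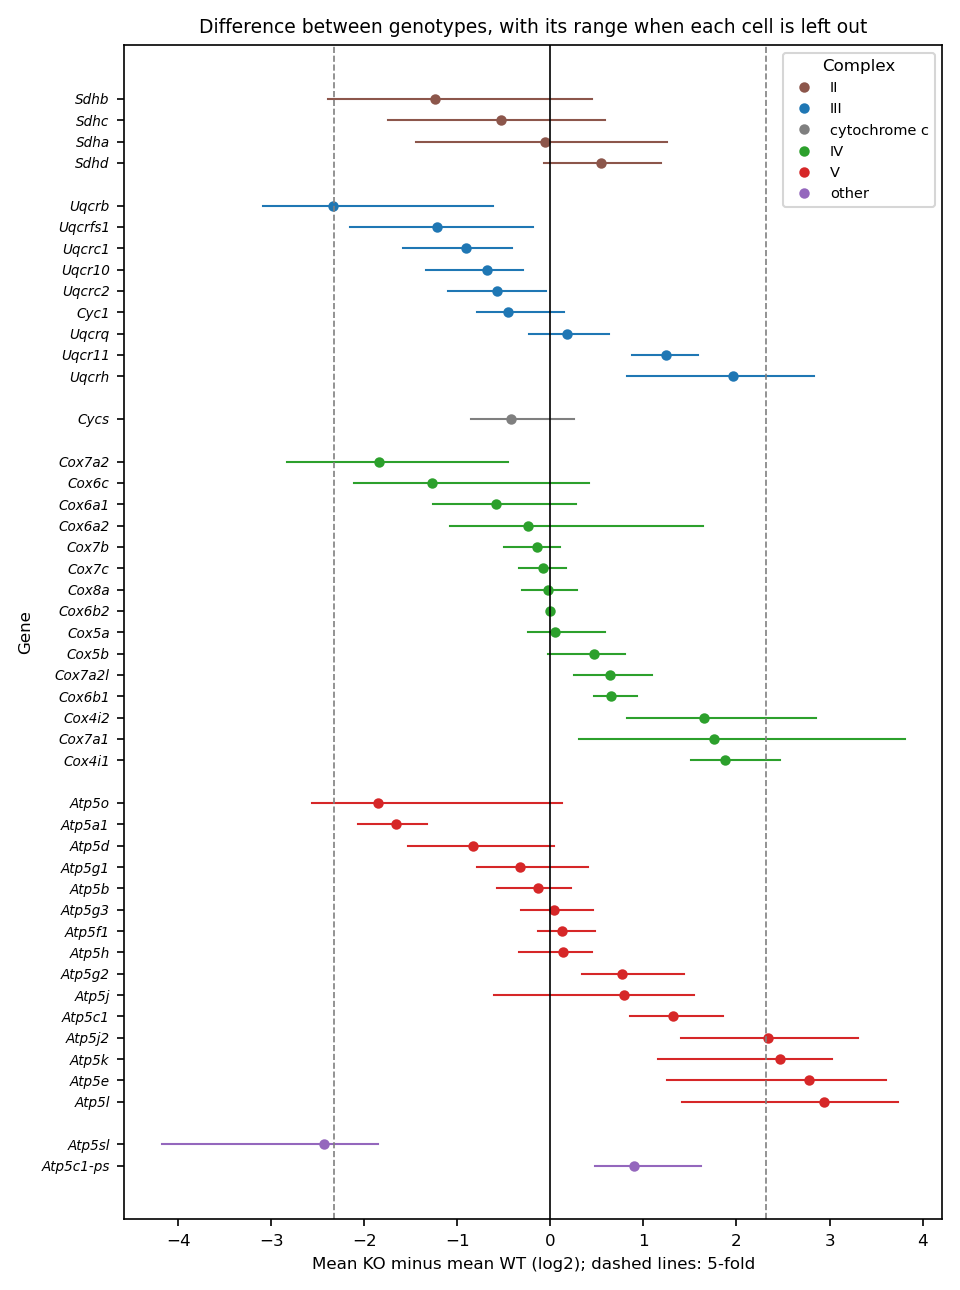
Mean KO minus mean WT signal (log2) of each of the 46 members, ordered within complexes. Points are the values over all 8 cells, lines run from the lowest to the highest value when each cell is left out in turn, and dashed lines mark 5-fold. Only complex V has points beyond the upper dashed line, and no line lies wholly beyond either dashed line.

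In complex IV, 7 of 15 genes were lower and 7 higher, with a median of 0 and none past 5-fold. The clearest shift was in Cox4i1, the main form of subunit 4, which regulates the enzyme. It read 29066, 5552, 8242 and 4019 in WT and 40921, 28165, 29430 and 28804 in KO. The 4 KO cells lay close together, with an SD of 0.26 log2 units against 1.25 in WT, and WT cells 2 to 4 were all well below them. WT cell 1 alone overlapped with the KO cells. The difference was 1.88 over all cells and 2.47, past 5-fold, without WT cell 1.

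Cox4i2, the second form of subunit 4, read 1478, 50, 50 and 59.7 in WT and 2144, 219, 193 and 240 in KO, a difference of 1.65. A single cell of each genotype was high, WT cell 1 and KO cell 1, and the other KO cells were above the other WT cells. Without WT cell 1, all KO cells were above all WT cells for 4 members (8.7%), Cox4i1, Cox4i2, Cox6b1 and, in complex V, Atp5g2, against 6.52% of 5171 genes. Without any other cell, 0 to 2 members were in this position.

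The heart and muscle forms of complex IV subunits differed in both directions, and so did the general forms. Cox7a1, the heart and muscle form of subunit 7a, was higher in KO by 1.76 log2 units, with 4532, 50, 1464 and 3500 in WT and 20068, 17314, 50 and 8860 in KO. It lay at the floor in WT cell 2 and in KO cell 3, and the difference was 0.30 without WT cell 2 and 3.81 without KO cell 3. Cox7a2, the general form, was lower by 1.84, with 19630, 1870, 11495 and 5570 in WT and 109, 1253, 15262 and 6889 in KO, and was lower by 0.45 without KO cell 1. In KO cells 1 and 2 Cox7a1 was high and Cox7a2 low, and in KO cell 3 the reverse held. Among the WT cells the 2 forms went together, with cell 1 highest and cell 2 lowest in both.

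Cox6a2, the heart and muscle form of subunit 6a, read 5356, 1623, 1758 and 5089 in WT and 12956, 14474 and 4247 in KO cells 1, 3 and 4, while it was not detected in KO cell 2. Its difference was -0.24, and 1.64 without KO cell 2. Cox6a1, the general form, read 74554, 15555, 23416 and 30723 in WT and 83935, 3388, 24915 and 23594 in KO, with KO cell 2 again the lowest. Its difference was -0.58, and 0.28 without KO cell 2.

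The other isoform groups had 1 member above the floor. Cox6b1, the general form of subunit 6b, read 4048, 2300, 1654 and 1635 in WT and 5163, 2534, 3680 and 3178 in KO, a difference of 0.65 that stayed between 0.47 and 0.94 when any cell was left out. Cox7b ranged from 14921 to 41273 in WT and from 13476 to 45829 in KO, with a difference of -0.15. Cox8a, the general form of subunit 8, ranged from 21728 to 54108 in WT and from 15556 to 53303 in KO, with a difference of -0.02. Cells of the 2 genotypes covered much the same range in both. Cox5a and Cox5b, subunits on the matrix side, differed by 0.05 and 0.47, and Cox7c, with KO cells from 4704 to 10817 and WT cells from 4693 to 13329, was also alike in range.

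Cox6c, a small subunit, was at the floor in KO cell 2 and read 3587 to 9482 in the other KO cells, against 2063 to 7783 in WT. Its difference of -1.28 turned to 0.41 without KO cell 2. WT cell 1 gave the highest WT value for 13 of the 15 complex IV genes, and WT cell 2 the lowest for 8. The score of complex IV was 1.04, -0.92, -0.21 and -0.31 in WT and 0.69, -0.68, 0.14 and 0.24 in KO, a difference of 0.20 with an SD of 0.82 in WT and 0.57 in KO.

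**Figure D3:**
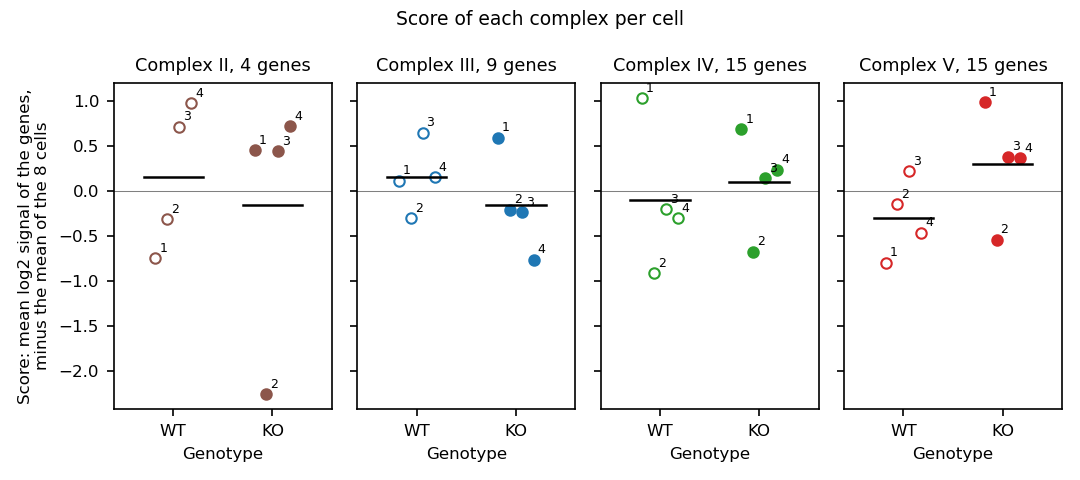
Score of complexes II, III, IV and V in each cell, the mean log2 signal of the genes of the complex minus its mean over the 8 cells. Open circles are WT and filled circles KO cells, numbers are cell numbers, and bars are genotype means. The genotypes overlap in all 4 panels, with KO cell 2 at -2.26 in complex II and WT cell 1 at 1.04 in complex IV but -0.80 in complex V.

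Complex V held the members with the largest differences upward. Of 15 genes, 10 were higher in KO and 5 lower, with a median of 0.14 that was -0.05, -0.21 and -0.06 under the other 3 ways of scaling (75th percentile, all probes, quantile). Atp5l, the g subunit of the membrane part, was not detected in WT cell 1, read 6242, 2653 and 2578 in the other WT cells and 21671, 5173, 11510 and 5784 in KO. Atp5k, the e subunit, which pairs with g, read 96.9, 4772, 4480 and 2340 in WT and 11428, 9929, 3692 and 10754 in KO. Atp5j2, the f subunit, read 449, 3299, 23455 and 2955 in WT and 33773, 3588, 28507 and 19608 in KO. In all 3 genes WT cell 1 was the lowest of the 8 cells by far.

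The differences were 2.94 for Atp5l, 2.46 for Atp5k and 2.34 for Atp5j2 on the log2 scale. Without WT cell 1 they were 1.41, 1.15 and 1.40, below 5-fold. Atp5e, the epsilon subunit of the F1 head, followed the same pattern, with 50, 4972, 2570 and 3276 in WT and 19123, 1493, 9230 and 17726 in KO, a difference of 2.78 that was 1.25 without WT cell 1. Atp5j, coupling factor 6 of the peripheral stalk, was at the floor in WT cell 1 too, and its difference of 0.79 became -0.60 without that cell.

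Most subunits of the F1 head and the c ring differed less or in the other direction. Atp5a1, the alpha subunit, was lower in KO, with 33694, 26870, 11249 and 7772 in WT and 12350, 2950, 2907 and 7499 in KO. Only KO cell 1 exceeded the lowest 2 WT cells, and the difference of -1.66 stayed between -2.07 and -1.32 when any cell was left out. Atp5b, the catalytic beta subunit, which alternates with alpha around the head, ranged from 15034 to 37436 in WT and from 9594 to 49795 in KO, with a difference of -0.14. Atp5d, the delta subunit, differed by -0.83, and by 0.04 without KO cell 1. Atp5c1, the gamma shaft, differed by 1.32, but both its probes lay on chromosome 13, where its pseudogene Atp5c1-ps lies, and not on chromosome 2, where RefSeq places the gene. The probe named for the pseudogene differed by 0.90.

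The 3 genes for the c ring subunit, Atp5g1, Atp5g2 and Atp5g3, make the same mature protein. Atp5g1 read 195486, 22740, 40026 and 35393 in WT and 106622, 47677, 57064 and 8872 in KO, a difference of -0.32 that was 0.40 without KO cell 4, 0.33 without WT cell 1 and 0.47 with medians of cells in place of means. Atp5g2 read 159768, 16626, 34471 and 28243 in WT and 61301, 43348, 83840 and 97697 in KO, a difference of 0.77. Atp5g3 read 33531, 6610, 11000 and 15980 in WT and 24440, 8510, 15081 and 13956 in KO, a difference of 0.04 that was negative under all 3 other scalings. WT cell 1 was the highest of the 8 cells in all 3 genes.

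Atp5o, which joins the stalk to the head, read 31192, 9474, 6989 and 6706 in WT and 11461, 50, 13313 and 10762 in KO. KO cell 2 alone lay low, and the difference of -1.85 became 0.12 without it. Atp5f1 and Atp5h, the other stalk subunits, differed by 0.13 and 0.14.

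WT cell 1 thus split complex V. Of its 15 genes, WT cell 1 gave the highest WT value for 9 and the lowest for 6, and it was between the other WT cells for none. The lowest 6 were Atp5b, at the F1 head, and Atp5e, Atp5j, Atp5j2, Atp5k and Atp5l. The score of complex V was -0.80, -0.15, 0.22 and -0.46 in WT and 0.99, -0.54, 0.38 and 0.36 in KO, a difference of 0.60 with an SD of 0.44 in WT and 0.63 in KO. KO cell 1 had the highest of these scores and gave the highest KO value for 10 of the 15 genes, so WT cell 1 was not the only cell behind the difference. The score of complex IV in WT cell 1 was the highest of the 8 cells and that of complex V the lowest. On this array 19.6% of probes were well above background. That was the lowest share of the WT arrays, the others having 21.4% to 26.0%, and above KO cells 2 (17.2%) and 3 (17.1%). The myocardial markers went both ways in this cell. Actn2, Ttn, Tnnt2 and Tnni1 were the lowest of the 8 cells in it, whereas Myl4, Actc1 and Nkx2-5 were the highest. The part of amplification in this split was not tested.

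**Figure D4:**
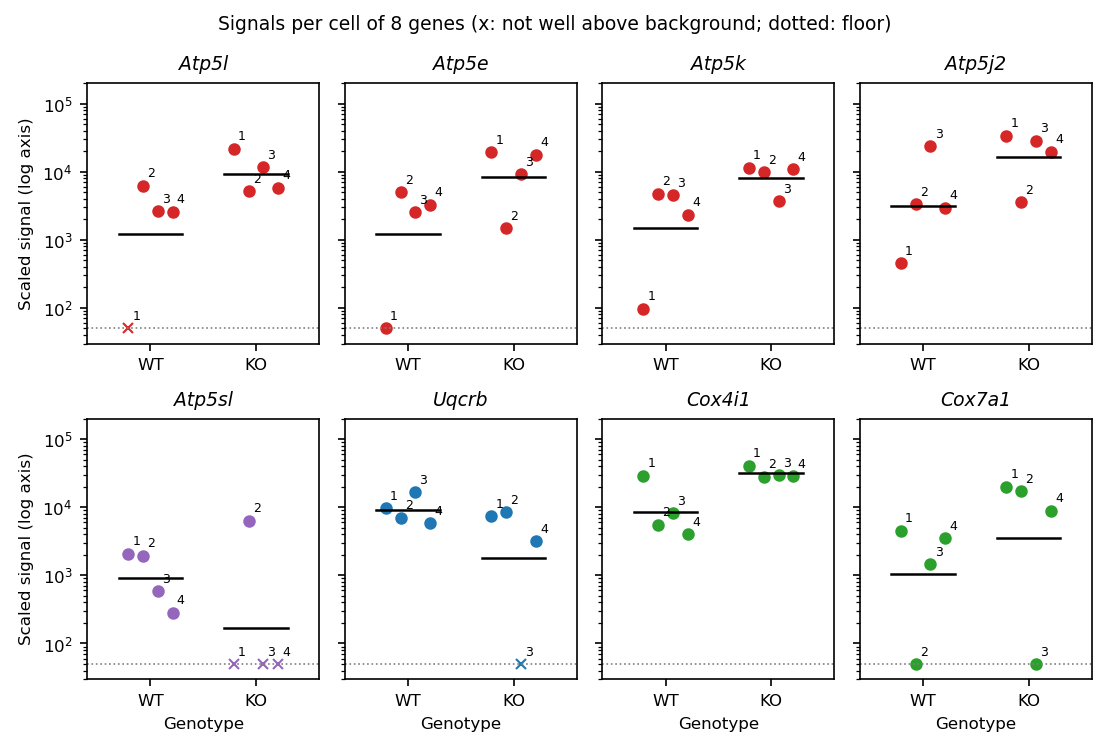
Scaled signal (log axis) of the 6 members past 5-fold and of Cox4i1 and Cox7a1 in each WT and KO cell, with cell numbers. Crosses are signals not well above background, bars are means of log2 signals, and the dotted line is the floor of 50. WT cell 1 lies far below the other cells in the first 3 panels and is the lowest in the fourth, and in Cox4i1 it alone reaches the KO cells.

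Of the 2 genes that the naming rule takes in from outside the complexes, Atp5sl, now called Dmac2 in RefSeq, was lower in KO. It read 2089, 1935, 591 and 282 in WT, was not detected in KO cells 1, 3 and 4, and read 6329 in KO cell 2, the highest of all 8 cells. The other 3 KO cells lay below every WT cell. Its difference was -2.43. It was -4.18 without KO cell 2, -1.85 without KO cell 1, 3 or 4, -2.03 without WT cell 1, -2.07 without WT cell 2 and -1.75 with quantile normalization, so that it passed 5-fold in only some of these settings.

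The partners of these complexes were sparser. Of 32 assembly factors on the array, 14 were detected in at least 4 cells. Of these 14, 2 were at least 5-fold lower in KO and 2 at least 5-fold higher, against 9.95% and 2.6% of all genes, and the median was 0.64. Among them Ttc19 lay at the floor in all 8 cells, and Cox15, Sco2, Coa5 and Atpaf2 lay there in 5 cells each. The largest difference was in Oxa1l, which inserts newly made subunits into the inner membrane. It read 11589, 4936, 1991 and 2013 in WT, where it was detected in all cells, and 50, 141, 50 and 50 in KO, where it was detected in 2. Every WT cell was above every KO cell, and the difference of -5.91 stayed between -6.28 and -5.38 when any cell was left out.

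Sco2, which delivers copper to complex IV, read 1012, 50, 50 and 3117 in WT and 78.2, 50, 50 and 50 in KO, a difference of -2.41 that was -1.29 without WT cell 4. Cox14, which takes part in making the mitochondrially encoded subunit 1, read 50, 84.9, 50 and 3134 in WT and 11819, 1804, 1251 and 865 in KO, a difference of 3.77 that was at least 2.96 when any cell was left out. Cox16, another complex IV assembly factor, read 2649 in WT cell 3 and 50 in the other WT cells, and 648, 5143, 50 and 1631 in KO, a difference of 2.42 that was 1.48 without KO cell 2. Sco2 and Cox16 were thus below 5-fold without 1 cell, whereas Cox14 stayed past it. Cox10, Cox11, Cox19, Sco1, Pet100, Lyrm7 and Atpaf1 were detected in 0 of 8 cells.

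All 5 partners of the ATP synthase were detected in at least 4 cells and none was past 5-fold. In KO 4 of them were lower and 1 was higher, with a median of -0.38. Slc25a3 had the largest difference, -1.695. It was not detected in KO cell 3, and the difference was -0.61 without that cell. Slc25a4, the muscle form of the ADP and ATP carrier, read 133193, 65959, 41656 and 52411 in WT and 101976, 44963, 36243 and 40194 in KO, a difference of -0.38. Of 12 regulators of respiratory gene transcription, 3 were detected in at least 4 cells, Esrra, Pprc1 and Tfam, and none was past 5-fold. Pprc1 lay at the floor in 7 cells and Tfam in 5, so their differences hold little information. Esrra, a nuclear receptor of energy metabolism, ranged from 166 to 17033 in WT and from 50 to 14263 in KO. The mitochondrially encoded subunits were not analysed here.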

How the data were processed

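Arrays of 8 single cells (4 WT, 4 KO) were read from the deposited Agilent Feature Extraction files, version 12.0.2.2 per the file headers. The deposited values are intensity values on a linear scale, corrected for background by the software and not normalized between arrays. The authors amplified cDNA of each cell by PCR, and this can exaggerate or lose transcripts. Control spots and outlier spots (146 to 220 per array) were left out, and no spot was saturated. Repeat spots of a probe were averaged after log2. Each array was shifted, by -0.76 to 0.68, so that its 50th percentile over the 5301 probes well above background on all 8 arrays equalled the mean over arrays, and signals below 50 were raised to this floor, where they have no order. Genes had 1 probe each, that of highest mean signal, and counts used genes detected in at least 4 of 8 cells. The study's size rule of 5-fold was used. The number of arrays limits the precision.

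Genes were named by a rule: members past 5-fold, the 5 largest differences each way, members whose cells do not overlap, Sdha to Sdhd, Cyc1, Cycs, isoform groups, undetected members and context genes past 5-fold; others were named after their values were seen. The members and lists were chosen with earlier results of these data known. RefSeq (GRCm38.p6) served for names and chromosomes, and all 50 members matched. Alternatives changed scaling, background correction (limma 3.58.1, R 4.3.3), floor, probe, average, flags, filter and fold. Leaving out a cell kept the scaling. Scripts (Python 3.11.15) were tested on simulated data.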

Additional observations from a re-analysis of the deposited data

Results flagged for a closer look

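In a group of 4 cells, a cell was marked when its gap to the nearest other cell, as a share of the range of the group, exceeded the critical value of Dixon's test at the 95% level. Of 108 groups examined (46 genes and 8 scores in 2 genotypes), 11 were marked. The test marks about 5% of independent groups of normal values by chance. Signals set to the floor are not normal and the scores rest on the same genes, so the 2 shares cannot be compared. KO cell 2 had 5 of the marks. Its complex II score was -2.263, and its score over the 2 genes outside the complexes was 1.826. Its signal was 50 for Atp5o and 2399 for Atp5c1-ps, both below the other KO cells, and 6329 for Atp5sl, above them. KO cell 1 was above the other KO cells for Cox4i1 (40921) and Cox4i2 (2144). KO cell 3 was below them for Atp5k (3692) and Cox7a1 (50). WT cell 1 was below the other WT cells for Atp5e (50) and above them for Cox4i2 (1478). Signals are scaled and floored at 50.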

How the results depend on the processing

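No paired analysis was possible because the replicate number names a cell on a slide and no test was made. With 4 cells a genotype from an unknown number of embryos and amplification from 1 cell, the depth of these data allows no statement on the genotype beyond these cells. With 4 members higher and 2 lower in KO by at least 5-fold, the count of higher members was 2 with the 75th percentile, with the percentile over all probes, with quantile normalization, with normexp and with medians of cells, 10 at 2-fold and 0 at 10-fold. The count of lower members was 1 with quantile normalization, normexp, medians of cells, the mean of all probes of a gene, and subunits and cytochrome c only, 0 with genes detected in all 8 cells, 8 at 2-fold and 0 at 10-fold. Leaving out a cell gave 2 to 5 higher and 0 to 4 lower. Without WT cell 1, 3 members passed, Cox4i1, Cox4i2 and Cox7a1, and 0 of the 6 were shared; without KO cell 1 there were 2 higher (Atp5e, Atp5l), without KO cell 4 there were 4 lower, and without WT cell 3 there was 1. The count with every KO cell above every WT cell, 0, was 1 with the 75th percentile (Cox4i1), 1 with quantile normalization (Cox4i1), 1 with the mean of all probes (Cox7a2l) and 0 to 4 without a cell. That with every WT cell above every KO cell, 0, was 1 with quantile normalization (Atp5a1) and 0 to 1 without a cell. Members detected in all cells were 41 to 42 without a cell. With single cells left out, the median difference of the members ran from -0.20, with WT cell 2 left out, to 0.29, with KO cell 2 left out, and that of complex II from -0.68 to 0.57, of complex III from -0.71 to -0.19, of complex IV from -0.12 to 0.41 and of complex V from 0.00 to 0.46. In the same way the score difference ran from -0.62 to 0.38 in complex II, from -0.56 to -0.11 in complex III, from -0.08 to 0.57 in complex IV and from 0.37 to 0.87 in complex V. Over the other settings, the percentile over all probes gave the lowest values: a median of -0.33 for the members, -0.61, -0.92, -0.30 and -0.21 for complexes II to V, and score differences of -0.69, -0.65, -0.10 and 0.24, with the median of all genes at -0.08. The highest medians were 0.17 for the members, 0.29 for complex IV and 0.45 for complex V with medians of cells, 0.02 for complex II with quantile normalization and -0.51 for complex III with genes detected in all 8 cells, and the highest score differences were -0.17, -0.06, 0.24 and 0.68 in complexes II to V. Normexp moved the median of all genes to 0.16, and the members' median to -0.02. The cause was not tested beyond the cells named.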
